A study of Mus musculus with 12 samples.

Results

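The 10 genes described here mark the successive stages through which an oligodendrocyte precursor becomes a myelin-forming cell. They were chosen by name from the lineage, with earlier results of these data known, and no single contrast or threshold set the choice. Pdgfra and Cspg4 stand for the precursor, Gpr17 and Bmp4 for the committed precursor, Enpp6, Tcf7l2, Itpr2 and Bcas1 for the newly formed oligodendrocyte, and Sox10 and Myrf for the transcription factors that act along the way. All 10 were found among the 19268 genes of the table, positions are given on build GRCm38, and all 10 passed the filter on low values in every fit. Transcripts were measured by RNA-Seq in whole forebrain without the olfactory bulb from male C57BL/6J mice, with 3 libraries in each of 4 groups. The groups were WT and KO mice of postnatal day 25 (P25-WT and P25-KO) and of postnatal day 60 (P60-WT and P60-KO). KO mice were homozygous for a germline deletion of several internal exons of Shank3, a scaffold protein of excitatory synapses, and WT mice carried the intact gene. No treatment is given in the labels, and all groups share the strain, sex and tissue. The deletion is not limited to a cell type, and each library mixes all cells of the forebrain. The study's figure captions count 3 mice per group, but the labels do not tie libraries to litters, so p-values measure the spread between these libraries.

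All values are normalized counts, that is, estimated read counts per gene that the submitters had scaled between libraries. The study states that read counts were normalized to gene size, so the scaling may also have differed between genes. The 12 libraries summed to between 30568259 and 32348554 normalized counts, and since the values had already been scaled, the sequencing depth behind them is unknown. Shank3 lay between 4535 and 5729 normalized counts in the 6 KO libraries and between 8936 and 11683 in the 6 WT libraries. The ranges did not overlap, so every library fell on the side of its label. These values cover the whole gene, not the deleted exons alone, and do not show whether a KO mouse was homozygous. P25-WT replicate 2 stood apart for the stage genes: it was the lowest of the 6 P25 libraries for 7 of the 10. In the same library the summed level of 15 mature oligodendrocyte genes reached 548420 normalized counts, the highest of the 12. P60-WT replicate 2 was the lowest of the 6 P60 libraries for 5 of the 10 stage genes and the highest for 4.

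Oligodendrocyte precursors divide and migrate in response to platelet-derived growth factor, and persist in the adult brain as a proliferating pool. Cells that commit to differentiation lose the precursor receptors, pass through a short stage marked by Gpr17, and then switch on the enzymes and structural proteins of myelin. Sox10 is required throughout the lineage and Myrf for the onset and upkeep of myelin gene expression.

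For the 3 stage genes with the largest mean difference between the ages, leaving out Gpr17, for which no sequence is shown, the bases just upstream of the gene are given to show what kind of promoter each has. The sequences are from RefSeq on build GRCm38.p6 and are written 5′ to 3′ in the direction of transcription, with each CpG dinucleotide in capitals, a marking that was added after the motif search had given no match in these windows. The Enpp6 window covers chr8:46986637-46986886 on the plus strand, the Cspg4 window chr9:56864854-56865032 on the plus strand, and the Bmp4 window chr14:46390670-46390919 on the minus strand. The Cspg4 window was shortened to the 179 bases before the annotated gene.
Enpp6: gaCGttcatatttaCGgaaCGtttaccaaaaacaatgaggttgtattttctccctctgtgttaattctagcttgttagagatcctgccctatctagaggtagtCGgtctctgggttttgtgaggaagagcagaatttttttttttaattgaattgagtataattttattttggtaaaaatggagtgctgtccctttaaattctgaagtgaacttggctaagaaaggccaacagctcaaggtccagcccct
Cspg4: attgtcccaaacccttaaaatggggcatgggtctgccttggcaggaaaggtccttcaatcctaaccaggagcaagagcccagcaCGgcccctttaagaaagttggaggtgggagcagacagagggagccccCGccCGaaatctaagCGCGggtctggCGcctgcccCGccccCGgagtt
Bmp4: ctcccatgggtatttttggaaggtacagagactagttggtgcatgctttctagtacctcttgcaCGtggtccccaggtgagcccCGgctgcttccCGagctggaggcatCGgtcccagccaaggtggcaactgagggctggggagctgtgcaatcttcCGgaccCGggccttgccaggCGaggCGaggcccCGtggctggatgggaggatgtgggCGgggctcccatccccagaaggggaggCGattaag
The Enpp6 window had a GC content of 38.4% and held 4 CpG, the Cspg4 window 60.3% and 8 CpG, and the Bmp4 window 63.2% and 11 CpG. Over the 32851 promoter windows in the RefSeq table the median was 52.4% GC and 6 CpG in 250 bases, with quartiles of 2 and 16 CpG. The windows for 6 of the 10 genes were matched, with 2 windows for Tcf7l2. Of these 7 windows, in their full 300 bases, 1 held ACAAAG, a core of SOX binding sites, and it was the second window of Tcf7l2. ACAAAG is present on either strand in 18.7% of all windows. None of the 7 windows held ATCAAAG (TCF/LEF factors, in 3.73% of all windows), CAGCTG (an E-box, in 16.3%) or CTGGCAC (Myrf, in 5.01%), on either strand. No motif of the 4 contains another. Such a match or its lack describes the letters in these windows only.

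To set levels of different genes side by side, normalized counts were divided by the length of the longest coding transcript in kilobases (kb). By this per-length level, Bcas1 was the highest of the 10 stage genes in every group, with group means between 1591.8 and 1754.2 normalized counts per kb, and Bmp4 was the lowest, with means between 43.7 and 87.3. At P25 the places after Bcas1 were held by Sox10 and Gpr17, with means of 882.1 and 881.7 per kb in P25-WT and 839.2 and 871.1 in P25-KO, and their ranges overlapped within each group. Myrf, Tcf7l2, Pdgfra, Enpp6, Cspg4 and Itpr2 followed in that order in both genotypes, each separated from the next by ranges that did not overlap, while the ranges of Itpr2 and Bmp4 overlapped. At P60 Gpr17 came after Bcas1, Sox10 and Myrf, with 384.8 per kb in P60-WT and 381.8 in P60-KO. In P60-WT the range of Gpr17 overlapped those of Myrf and Tcf7l2, and in P60-KO it overlapped neither. Enpp6 had moved from above Cspg4 to the same range as Cspg4 and Itpr2, with 81.0 per kb in P60-WT and 79.2 in P60-KO. With the mean length over all annotated transcripts in place of the longest, Bcas1, Sox10, Enpp6 and Bmp4 kept their places in the order averaged over the 4 groups, and each of the other 6 genes moved by 1 place.

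**Figure D1:**
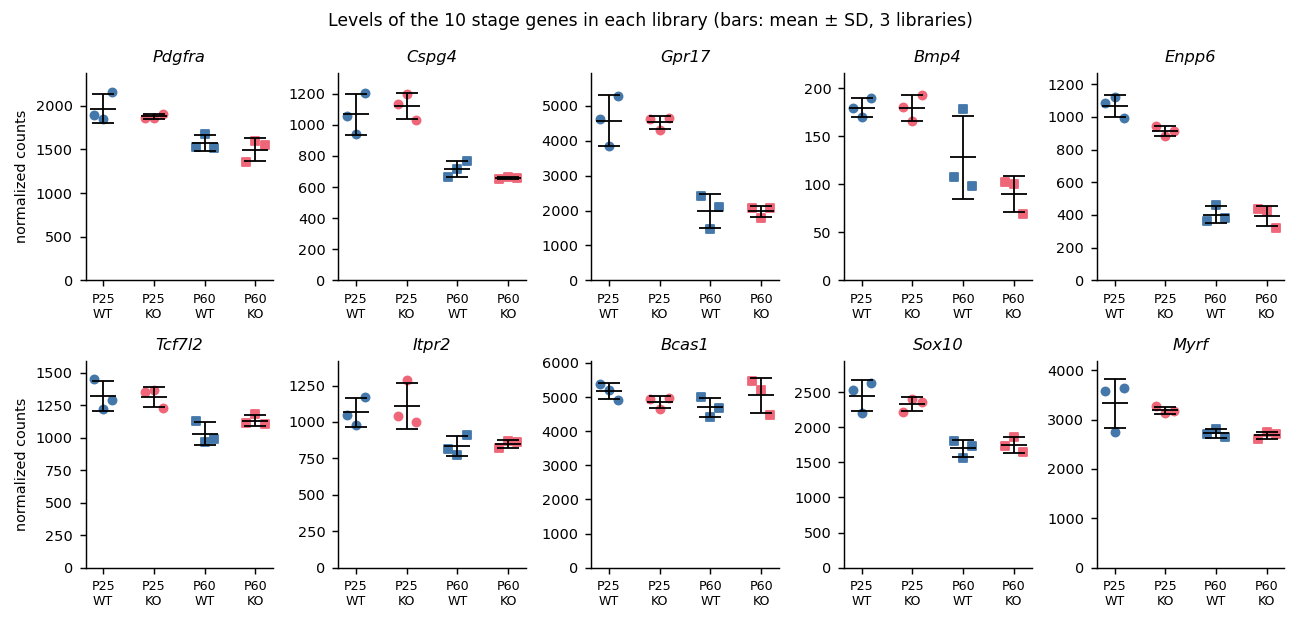
Normalized counts of the 10 stage genes in each library, with 1 panel per gene and the 4 groups on the horizontal axis. Circles are P25 libraries, squares P60 libraries, blue WT and red KO, bars give the mean ± SD of 3 libraries, and each vertical axis starts at 0. Gpr17 and Enpp6 show the widest gap between the ages, Bcas1 values overlap between the ages, and WT and KO points intermingle except for Enpp6 at P25.

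Both precursor genes had lower values in every P60 library than in any P25 library, although the WT difference of Pdgfra did not pass the limma test described further on. Pdgfra (ENSMUSG00000029231, chr5:75152292-75198215), the receptor through which platelet-derived growth factor drives precursor division, gave 1895, 1849 and 2157 normalized counts in P25-WT replicates 1 to 3, 1863, 1861 and 1910 in P25-KO, 1525, 1681 and 1511 in P60-WT, and 1352, 1593 and 1550 in P60-KO. Every P60 library lay under every P25 library. In whole tissue, fewer cells of a stage and less RNA per cell cannot be told apart, here and for the genes that follow. P60 means were 79.9% of the P25 mean in WT and 79.8% in KO, a log2 fold change of -0.32 ± 0.09 (SE) in WT and -0.33 ± 0.07 in KO from limma, on the log2(value + 1) scale used for all fold changes here.

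Cspg4 (ENSMUSG00000032911, chr9:56865033-56899870), the NG2 proteoglycan of precursors and pericytes, gave 1060, 941 and 1202 normalized counts in P25-WT, 1132, 1200 and 1032 in P25-KO, 664, 719 and 768 in P60-WT, and 653, 666 and 659 in P60-KO. The highest P60 library was below the lowest P25 library, and the P60-KO libraries had an SD of 1.0% of their mean. The log2 fold change from P25 to P60 was -0.57 ± 0.11 in WT and -0.76 ± 0.08 in KO. Relative to Pdgfra by per-length level, Cspg4 stood at 0.428 to 0.542 in the P25 libraries and at 0.352 to 0.428 in the P60 libraries, ranges that met at their ends.

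Of the committed-stage genes, Gpr17 was lower at P60 than at P25 in every library of both genotypes, and Bmp4 in every KO library. Gpr17 (ENSMUSG00000052229), a G protein-coupled receptor found for a short time in committed precursors, gave 4623, 3837 and 5282 normalized counts in P25-WT, 4614, 4323 and 4639 in P25-KO, 2425, 1463 and 2108 in P60-WT, and 2080, 1799 and 2073 in P60-KO. All P60 values were far under all P25 values, at 43.6% of the P25 mean in WT and 43.8% in KO. The WT libraries were more spread than the KO libraries at both ages, with an SD of 15.8% and 24.54% of the mean in P25-WT and P60-WT and of 3.88% and 8.08% in P25-KO and P60-KO. The log2 fold change was -1.22 ± 0.18 in WT and -1.19 ± 0.07 in KO.

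Bmp4 (ENSMUSG00000021835, chr14:46383520-46390669), a secreted ligand of the TGF-β family that holds back oligodendrocyte maturation and is itself transcribed in committed precursors, was the gene with the lowest level. It gave 180, 170 and 190 normalized counts in P25-WT, 181, 166 and 193 in P25-KO, 108, 178 and 98.8 in P60-WT, and 102, 100 and 68.8 in P60-KO. The P25 libraries of both genotypes shared 1 range, the P60-KO libraries all lay below it, and P60-WT replicate 2 was inside it. The log2 fold change with age was -0.53 ± 0.22 in WT and -1.01 ± 0.17 in KO. Without P60-WT replicate 2 the WT value was -0.79.

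Among the newly formed oligodendrocyte genes the age difference ran from the widest of the 10 genes to one where the ages overlapped. Enpp6 (ENSMUSG00000038173, chr8:46986887-47096762), a choline-releasing phosphodiesterase used to mark oligodendrocytes that have just formed, gave 1084, 1121 and 991 normalized counts in P25-WT, 942, 881 and 915 in P25-KO, 364, 462 and 382 in P60-WT, and 434, 426 and 320 in P60-KO. P60 libraries stood at 37.8% of the P25 mean in WT and 43.1% in KO, with log2 fold changes of -1.41 ± 0.12 and -1.23 ± 0.12. At P25 the 3 KO libraries were all below the 3 WT libraries, and at P60 the genotypes overlapped.

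Tcf7l2 (ENSMUSG00000024985, chr19:55741820-55933654), a transcription factor of the Wnt pathway that is also abundant in thalamic neurons, gave 1449, 1223 and 1292 normalized counts in P25-WT, 1348, 1364 and 1224 in P25-KO, 1130, 969 and 988 in P60-WT, and 1109, 1180 and 1104 in P60-KO. The ages did not overlap in either genotype, and the log2 fold change was -0.36 ± 0.10 in WT and -0.21 ± 0.07 in KO. The summed level of 9 thalamic markers lay between 11176 and 12490 normalized counts at P25 and between 11708 and 12397 at P60, with 1 of 9 called lower in WT, and 2 lower and 1 higher in KO. Over all genes tested, 4.99% were called lower in WT, and 11.3% lower and 9.37% higher in KO. Their part in the Tcf7l2 level was not tested.

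Itpr2 (ENSMUSG00000030287, chr6:146108299-146502223), a receptor that releases calcium from internal stores, found in newly formed oligodendrocytes and in astrocytes, gave 1046, 980 and 1171 normalized counts in P25-WT, 1038, 1290 and 1003 in P25-KO, 817, 776 and 910 in P60-WT, and 818, 869 and 864 in P60-KO. The P60 libraries lay below the P25 libraries in both genotypes, with log2 fold changes of -0.35 ± 0.10 and -0.38 ± 0.10 in WT and KO. The summed level of 6 astrocyte markers was 34277 to 39227 normalized counts at P25 and 29677 to 32532 at P60, with 3 of 6 called lower in each genotype, against 4.99% of all genes in WT and 11.3% in KO. The P60 sums lay below the P25 sums, as for Itpr2, and their part in the Itpr2 difference was not tested.

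Bcas1 (ENSMUSG00000013523, chr2:170346991-170427845), a protein of early myelinating oligodendrocytes, was the exception. It gave 5390, 5218 and 4927 normalized counts in P25-WT, 4938, 4651 and 4978 in P25-KO, 4989, 4420 and 4687 in P60-WT, and 5460, 5214 and 4472 in P60-KO. The ages overlapped in both genotypes, and the log2 fold change was -0.14 (95% confidence interval -0.31 to 0.03) in WT and 0.05 (-0.11 to 0.22) in KO. Of the 31-base words in the Bcas1 transcripts, 10.2% also occur in transcripts of other genes, mainly the antisense genes Bcas1os1 and Bcas1os2, and the library kit does not keep the strand, so reads of Bcas1 and of its antisense partners cannot be told apart where they overlap. The next highest shares were 5.57% for Pdgfra, 3.55% for Bmp4 and 2.59% for Gpr17, which shares them with Lims2 on the opposite strand.

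Of the lineage regulators, Sox10 had lower values in every P60 library than in any P25 library, and Myrf did so in KO only. The WT difference of Myrf did not pass the limma test. Sox10 (ENSMUSG00000033006, chr15:79154908-79165240), the SRY-related factor present from precursor to myelinating cell, gave 2534, 2198 and 2625 normalized counts in P25-WT, 2224, 2409 and 2366 in P25-KO, 1803, 1569 and 1733 in P60-WT, and 1735, 1863 and 1648 in P60-KO. The ages did not overlap, and the log2 fold change was -0.53 ± 0.10 in WT and -0.42 ± 0.07 in KO. Myrf (ENSMUSG00000036098, chr19:10208272-10240748), a membrane-tethered factor that switches on myelin genes, gave 3586, 2757 and 3645 normalized counts in P25-WT, 3274, 3138 and 3169 in P25-KO, 2704, 2811 and 2645 in P60-WT, and 2598, 2748 and 2701 in P60-KO. Only P25-WT replicate 2 fell among the P60 values. The log2 fold change was -0.28 ± 0.11 in WT and -0.25 ± 0.05 in KO, and the WT value was -0.41 without that library. Myrf stood at 0.615 to 0.721 of Sox10 by per-length level at P25 and at 0.723 to 0.877 at P60, so the ratio was higher at P60 in every library.

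Counted together, the P60 groups lay wholly below the P25 groups for 7 of the 10 stage genes in WT (not for Bmp4, Bcas1 and Myrf) and for 9 of 10 in KO (not for Bcas1). The same held for 18.4% of 17581 genes tested in WT and for 20.5% of 17596 in KO. By the limma test with Benjamini-Hochberg adjustment over all genes, 4 of the 10 were called lower at an adjusted p under 0.05 in WT (Cspg4, Gpr17, Enpp6 and Sox10), against 4.99% of all genes tested, and 8 of 10 in KO (not Tcf7l2 and Bcas1), against 11.3%. Since the genes were picked with the age results known, these counts describe them and test nothing. Their median log2 fold change was -0.445 in WT and -0.40 in KO, against -0.001 and 0.006 over all genes tested. The WT count moved with the library left out, and so did the count over all genes. Without P25-WT replicate 2, 8 of the 10 passed the same test in WT (not Bmp4 and Bcas1), against 8.05% of all genes called lower in that fit. Without P25-WT replicate 1 or P60-WT replicate 1, 2 did (Gpr17 and Enpp6), against 0.932% and 0.995% of all genes. Without P60-WT replicate 2, 3 did (Gpr17, Bmp4 and Enpp6), against 1.42%, and without P60-WT replicate 3, 1 did (Enpp6), against 0.591%.

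**Figure D2:**
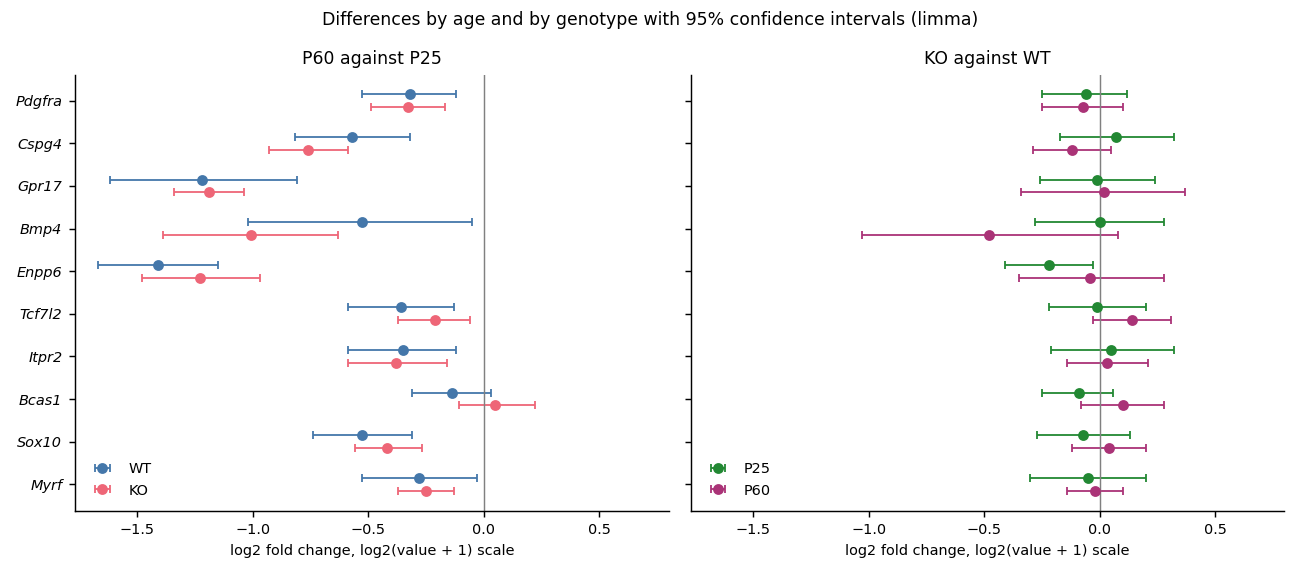
Log2 fold changes of the 10 stage genes from limma with 95% confidence intervals, P60 against P25 in WT (blue) and KO (red) on the left, and KO against WT at P25 (green) and P60 (purple) on the right. On the left the values run from -1.41 for Enpp6 in WT to 0.05 for Bcas1 in KO, and on the right all but Enpp6 at P25 have an interval that includes 0.

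The genotype comparison asked whether loss of Shank3 altered these genes at either age. At P25, 0 of the 10 stage genes were called between KO and WT by limma after adjustment over 17515 genes, where 0.00571% of all genes tested, Shank3 alone, were called in either direction. Log2 fold changes of KO against WT ran from -0.22 (Enpp6) to 0.07 (Cspg4), with a median of -0.03 and confidence intervals that together reached from -0.41 to 0.32. Enpp6 was the 1 gene of the 10 whose KO and WT libraries did not overlap at P25, against 4.76% of all genes tested. The KO mean was 85.7% of the WT mean, the 95% confidence interval of the log2 fold change was -0.41 to -0.03, and the limma test gave an unadjusted p = 0.0294 and an adjusted p = 1.0. It was also the only one of the 10 with an unadjusted p under 0.05, against 1.36% of all genes (238 of 17515). When a setting was changed or a library left out, the Enpp6 value stayed between -0.27 and -0.18.

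Several of the other P25 values moved when 1 library was left out, while Bcas1 stayed between -0.13 and -0.06 under every setting. Without P25-WT replicate 2, the library that stood apart, all 10 log2 fold changes were below 0, where 50.6% of all genes were, and they ran from -0.18 (Enpp6 and Myrf) to 0.00 (Itpr2) with a median of -0.10. Myrf was then at -0.18 in place of -0.05, Gpr17 at -0.13 in place of -0.01 and Sox10 at -0.15 in place of -0.07. At an unadjusted p under 0.05 there were 3 of the 10, against 4.14% of all genes, and 0 passed the adjusted limma test. Without P25-WT replicate 3, in contrast, 4 of the 10 were below 0 and the median was 0.01, and without P25-WT replicate 1, 5 were below 0 and the median was 0.00. Without any 1 of the P25-KO libraries the median stayed between -0.05 and -0.03, though Itpr2 went from 0.05 to -0.06 without P25-KO replicate 2.

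At P60, 0 of the 10 were called among 17610 genes tested, against 0.00568% of all genes, again Shank3 alone, and 0 had an unadjusted p under 0.05 by limma, against 2.5% of all genes (440 of 17610). No stage gene had KO and WT libraries that did not overlap, against 7.79% of all genes. Log2 fold changes ran from -0.48 for Bmp4 to 0.14 for Tcf7l2 with a median of 0.00. The Bmp4 value (95% confidence interval -1.03 to 0.08, limma adjusted p = 1.0) moved most without P60-WT replicate 2, to -0.22. That library was at 178 normalized counts, against 108 and 98.8 in the other P60-WT libraries. The Bmp4 value was -0.29 without P60-KO replicate 3, at 68.8 normalized counts, and -0.64 without P60-WT replicate 3. For Myrf, the gene with the tightest estimate, the interval at P60 was -0.14 to 0.10, and for Sox10 it was -0.12 to 0.20. Intervals were wider for the genes with more spread, such as Gpr17 at -0.34 to 0.37. These intervals are not adjusted for the number of genes tested, so a difference beyond them could also go uncalled with 3 libraries a group.

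The difference between the genotype effects at P60 and P25 was tested over all 12 libraries. For the stage genes this interaction ran from -0.47 for Bmp4 (95% confidence interval -1.10 to 0.16) to 0.19 for Bcas1 (-0.04 to 0.42), and 0 of the 10 passed the limma test after adjustment, against 0.0% of the 17594 genes tested. The smallest unadjusted p among the 10 was 0.0959, for Bcas1, and 0 were under 0.05, against 1.64% of all genes (288 of 17594). The Bmp4 value was -0.21 without P60-WT replicate 2, -0.29 without P60-KO replicate 3 and -0.64 without P60-WT replicate 3. The median of the 10 was 0.03, and it was 0.14 without P25-WT replicate 2 and -0.06 without P25-WT replicate 3.

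Ratios of per-length levels within a library do not depend on a scaling that is shared by all genes of that library. Gpr17 stood at 2.73 to 3.26 times Pdgfra in the 6 P25 libraries and at 1.14 to 2.09 times in the 6 P60 libraries. Enpp6 stood at 0.632 to 0.834 of Pdgfra at P25 and at 0.284 to 0.442 at P60, so in both cases the committed or newly formed gene had the larger share of the precursor gene at P25, in every library. Bcas1 went the other way relative to Enpp6, at 7.84 to 9.16 times at P25 and 16.1 to 23.5 times at P60. WT and KO libraries overlapped in all of these ratios within each age except Bcas1 to Enpp6 at P25, which was 7.84 to 8.37 in WT and 8.82 to 9.16 in KO. Enpp6 is the denominator there, so this is no separate observation from the Enpp6 values at P25, and it was not tested. Bmp4 stood at 0.291 to 0.334 of Pdgfra at P25 and at 0.147 to 0.35 at P60, where P60-WT replicate 2 was the 1 library above the P25 range. These ratios rest on the age contrast and are given as a description.

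**Figure D3:**
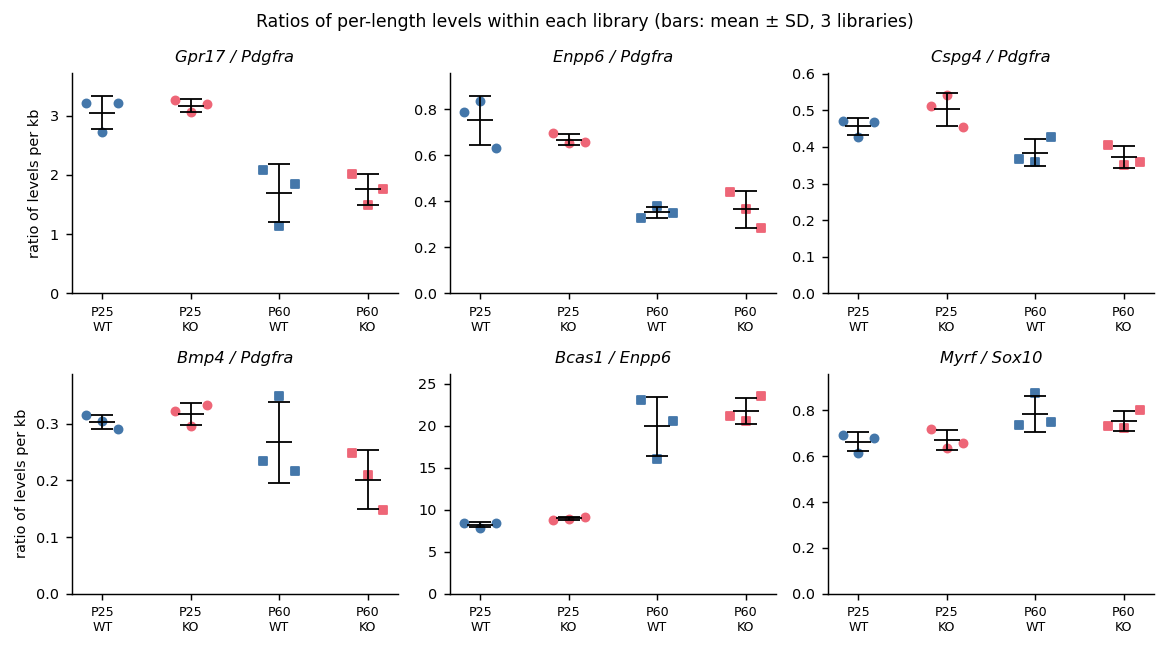
Ratios of per-length levels within each library for 6 gene pairs, with the 4 groups on the horizontal axis, circles for P25, squares for P60, blue for WT and red for KO, bars for the mean ± SD of 3 libraries and vertical axes from 0. Gpr17 and Enpp6 are lower relative to Pdgfra at P60 in every library, while Bcas1 relative to Enpp6 and Myrf relative to Sox10 are higher.

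Other genes of the same stages, from lists that held no stage gene named above, were followed in the same fits. These lists, too, were chosen with the age results known, and the genes named from them are those called with the widest age differences, so their calls describe them and test nothing. Among 12 other precursor genes, 2 passed the limma test as lower at P60 in WT and 5 in KO, with 0 higher, and the median log2 fold change was -0.29 and -0.22. Over all genes tested with all 6 libraries, 4.99% in WT and 11.3% in KO were called lower, and 3.66% and 9.37% higher. With 1 library left out, the share of all genes called lower was 0.591% to 8.05% in WT and 6.89% to 9.97% in KO. Emid1, which encodes an extracellular matrix protein, was lower by the most, at -1.33 ± 0.14 in WT and -1.32 ± 0.14 in KO, followed by C1ql1, a secreted C1q-like protein of precursors, at -0.63 ± 0.14 and -0.48 ± 0.13. Among 13 other genes of the committed and newly formed stages, 8 were lower in WT and 10 in KO with 0 higher, and the median was -0.77 and -0.79. The calcium-sensing receptor gene Casr was at -1.93 ± 0.23 in WT and -2.08 ± 0.24 in KO, and the long noncoding RNA gene 9630013A20Rik at -1.94 ± 0.19 and -1.92 ± 0.13. Cnksr3, a scaffold of the MAP kinase pathway, was at -1.40 ± 0.15 and -1.18 ± 0.10, and the kinesin gene Kif19a at -1.37 ± 0.16 and -1.03 ± 0.16. All 13 of these committed and newly formed genes had a value below 0 in both genotypes. When 1 library was left out, 1 to 4 of the other precursor genes were called lower in WT and 3 to 5 in KO, and Emid1 was called each time in both genotypes. C1ql1 lost its call in WT without P25-WT replicate 1 or any 1 of the P60-WT libraries, and in KO without P25-KO replicate 1 or 3 or P60-KO replicate 3. Of the committed and newly formed genes, 4 (without P60-WT replicate 3, where 0.591% of all genes were called lower) to 11 (without P25-WT replicate 2, where 8.05% were) were called in WT and 9 in every KO case, and the WT calls of Casr, 9630013A20Rik, Cnksr3 and Kif19a held each time.

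Among 14 other transcription factors of the lineage, 5 were called lower in WT, against 4.99% of all genes, and 6 in KO, against 11.3%, with a median of -0.20 and -0.29. Zfp488, a zinc finger factor of oligodendrocytes, was at -1.0 ± 0.12 and -0.93 ± 0.11, Olig1, a basic helix-loop-helix factor of the lineage, at -0.78 ± 0.07 and -0.70 ± 0.05, Sox8, a relative of Sox10, at -0.63 ± 0.09 and -0.58 ± 0.09, and Nkx2-2, a homeobox factor, at -0.65 ± 0.14 and -0.53 ± 0.11. Id4, an inhibitor of helix-loop-helix factors, was the 1 called higher, in KO at 0.22 ± 0.06 (9.37% of all genes were called higher there), and it was 0.25 ± 0.07 and not called in WT. With 1 library left out, 2 (without P60-WT replicate 1 or 3) to 6 of these factors were called lower in WT and 5 to 7 in KO, over the same range of all-gene shares. Olig1 and Zfp488 were called each time in WT, while Sox8 was not without P60-WT replicate 1 or 3, and Nkx2-2 was not without P25-WT replicate 1 or any 1 of the P60-WT libraries. The Id4 call in KO was lost without P25-KO replicate 2 or 3 or P60-KO replicate 1 or 3. Of 16 ligands, receptors, inhibitors and effectors of PDGF and BMP signalling, 1 was lower in WT, against 4.99% of all genes, and 3 in KO, against 11.3%, with 1 higher in KO, against 9.37%, and the median was -0.04 and -0.05. Pdgfa, the ligand of the receptor encoded by Pdgfra, was lower at P60 in both, at -0.35 ± 0.09 and -0.44 ± 0.08. The receptor gene Bmpr1b, for the ligand Bmp4, was the 1 higher in KO at 0.29 ± 0.09 and stood at 0.34 ± 0.11 in WT, where it was not called. Pdgfa kept its call in KO with any 1 library left out, but lost it in WT without P25-WT replicate 1 or any 1 of the P60-WT libraries, so that 0 of the 16 were then called. The Bmpr1b call in KO held only without P60-KO replicate 2, and 1 of the 16 was called lower in KO without P25-KO replicate 1 or 3 or P60-KO replicate 3.

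Most of the listed mature oligodendrocyte genes were also lower at P60. Of 15 listed, 11 were called lower at P60 in each genotype, against 4.99% of all genes in WT and 11.3% in KO, with a median log2 fold change of -1.29 in WT and -1.02 in KO, and their summed level was 426201 to 548420 normalized counts at P25 and 212991 to 242814 at P60. Gsn, an actin-severing protein of myelinating cells, was at -1.80 ± 0.07 in WT and -1.79 ± 0.09 in KO, Ugt8a, the enzyme of galactocerebroside synthesis, at -1.61 ± 0.11 and -1.39 ± 0.07, Mog, a glycoprotein of the outer myelin surface, at -1.46 ± 0.13 and -1.21 ± 0.10, and Cldn11, a tight junction protein of myelin, at -1.34 ± 0.07 and -1.29 ± 0.05. Ermn, Aspa, Apod and Klk6 were called in neither genotype. They were at -0.11, -0.2, -0.04 and 0.08 in WT and at 0.16, -0.01, 0.05 and 0.53 in KO, in that order. Of 8 proliferation genes, whose sum was 434 to 574 normalized counts at P25 and 219 to 336 at P60, 3 were called lower in WT and 4 in KO, against the same shares. Aurkb, a kinase of cell division, was at -1.86 ± 0.41 and -1.59 ± 0.46, and Rrm2, a subunit of ribonucleotide reductase, at -0.88 ± 0.20 and -0.57 ± 0.18. With 1 library left out, 9 to 11 of the mature genes were called in WT and 10 or 11 in KO, and 0 to 2 of the 8 proliferation genes in WT and 1 to 3 in KO, against 0.591% to 8.05% of all genes called lower in WT and 6.89% to 9.97% in KO. Aurkb was then called in WT only without P25-WT replicate 2, and Rrm2 only without P25-WT replicate 2 or 3. In KO, Aurkb was called only without P60-KO replicate 3, and Rrm2 in none of the 6 cases. Between KO and WT, at either age or in the interaction, 0 genes of these 6 lists were called by limma. At an unadjusted p under 0.05 there was 1 mature oligodendrocyte gene at P25 and 1 in the interaction, and 0 in the other lists, against 1.36%, 2.5% and 1.64% of all genes at P25, at P60 and in the interaction. At P25 all 15 mature oligodendrocyte genes had a KO value below the WT value, where 53.4% of all genes did, with a median of -0.14. The 3 summed levels in P25-WT, from lowest to highest, were 470449, 493256 and 548420 normalized counts, the last in P25-WT replicate 2, against 426201 to 502239 in P25-KO, so the groups overlapped. Without that library the 15 were still below 0 and the median was -0.09, and over all 6 libraries left out in turn the median ran from -0.22 to -0.08. At P60, 3 of 15 were below 0, where 49.9% of all genes were, and 1 to 8 when a library was left out.

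**Figure D4:**
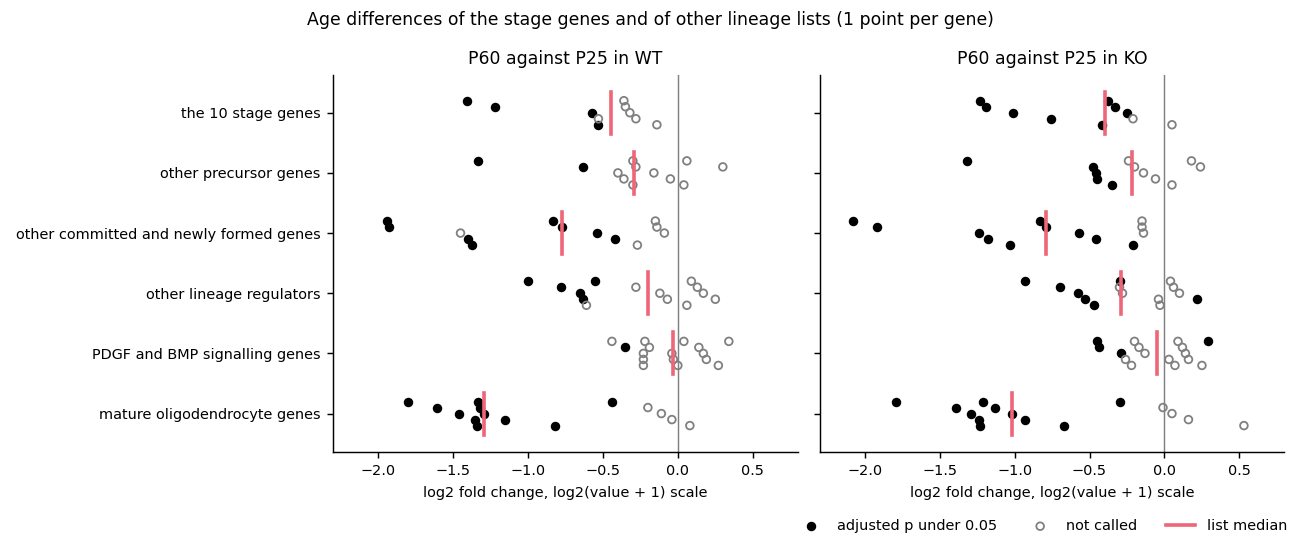
Log2 fold changes of P60 against P25 in WT (left) and KO (right), with 1 point per gene, for the 10 stage genes and 5 other lists of the lineage and its signals. Filled points passed the limma test, open points did not, and the red bar is the list median, which lies at -0.77 and -0.79 for the other committed and newly formed genes, at -1.29 and -1.02 for the mature genes and near 0 for PDGF and BMP signalling.

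Several stage genes are also read in other cells of the forebrain, and the marker lists of those cells moved to different degrees. The 5 pericyte markers, relevant to Cspg4, summed to 4715 to 6087 normalized counts at P25 and 3737 to 4292 at P60, with 1 called lower in WT, against 4.99% of all genes, and 2 in KO, against 11.3%. The 5 fibroblast markers, relevant to Pdgfra, summed to 3131 to 3506 and 1709 to 2278, and the 3 collagen genes Col1a1, Col1a2 and Col3a1 were lower in both genotypes while Dcn and Lum lay between -0.06 and 0.07. The part of pericytes in the Cspg4 difference and of fibroblasts in the Pdgfra difference was not tested. Summed microglia markers were 5658 to 7306 at P25 and 5207 to 6686 at P60 and endothelial markers 3953 to 5456 and 3946 to 7047, with 0 genes called in either list. Choroid plexus markers summed to 10177 to 14063 and 12139 to 17952, with 1 of 4 genes called higher at P60 in WT, against 3.66% of all genes, and 2 in KO, against 9.37%. Glutamatergic neuron markers summed to 114854 to 122268 and 103114 to 109595 and GABA neuron markers to 28011 to 29664 and 27841 to 30179. In the glutamatergic list 1 of 5 genes was lower in WT, and 2 were lower and 1 higher in KO, while in the GABA list 0 were called in WT and 1 was lower in KO. No listed marker was at 0 in any library. In WT without P60-WT replicate 3, 1 gene of the fibroblast list (Col1a1) and 0 of the pericyte, astrocyte, thalamic, choroid plexus and both neuron lists were called, against 0.591% of all genes called lower and 0.102% higher. In KO with any 1 library left out, the 3 collagen genes kept their calls and 1 or 2 pericyte and 1 to 3 astrocyte markers were called, against 6.89% to 9.97% of all genes called lower.

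The genes whose profile over the 12 libraries was most like that of each stage were found by the root mean square difference of centred log2 values, among 12152 genes with a mean of at least 100 normalized counts. For the precursor genes these were Npnt at 0.055, Lgi3, Slc7a5 and Mief1 up to 0.072, and for the committed genes Mob3b at 0.121, Col9a3, Sema4d, Fa2h and Col1a2 up to 0.133. For the newly formed genes they were Olfm2 at 0.032, Zdhhc9, Tubb3, Sqle and Slc27a4 up to 0.057, and for the regulators Sema4b at 0.044, Qk, Iffo1, Tbc1d22b and Aatk up to 0.05. The stage genes themselves differed from their own stage mean by up to 0.101, 0.232, 0.427 and 0.068 in the same order, and the widest of these was in the newly formed stage, which holds both Enpp6 and Bcas1. None of the neighbours was in the lists of lineage genes, and Col1a2 was in the fibroblast list.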

How the data were processed

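Forebrain RNA of 12 male C57BL/6J mice was sequenced after TruSeq v2 library preparation, which does not keep the strand. Per the submitters' processing notes, Salmon 1.1.0, R 3.6.2 and DESeq2 1.26.0 were used with build GRCm38. The values the authors deposited are a signal per gene, estimated read counts divided by a library size factor, and not raw counts: 0.53% of them are whole (within 0.001). Read depth is therefore unknown and no counting interval can be given.

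Groups came from the sample labels. Values entered the fit as log2(value + 1). A gene was tested if its mean reached 10 in the libraries fitted. Group means were compared with limma 3.58.1 in R 4.3.3 (eBayes with an intensity trend), with Benjamini-Hochberg adjustment over all genes tested and a threshold of 0.05. KO was compared with WT at each age and P60 with P25 in each genotype, each on its own 6 libraries, and the interaction was fitted on 12. All tests were two-sided. The fit was tested on simulated data with changes larger than the genotype differences of the stage genes, so that test does not measure power for those. Gene lengths and positions were taken from GENCODE release M21 (19252 of 19268 identifiers matched), and promoters from RefSeq tables.

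The 10 stage genes and all lists were chosen with earlier results of these data known. Genes named beside them were, per lineage list, up to 4 called in both genotypes with the largest mean age difference, and the 5 nearest profiles per stage, of which 1 is not reported here. Id4 and Bmpr1b (each the only gene of its list called higher), the collagens, Dcn and Lum were named after their values were seen. So were Ermn, Aspa, Apod and Klk6. The alternatives tried were other pseudocounts, low-value filters, scalings and variance models, a replicate block, a joint fit of 12 libraries and leaving out each library, which was extended to the other lists after the data were seen.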

Additional observations from a re-analysis of the deposited data

How the results depend on the processing

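Between KO and WT at P25, at P60 and in the interaction, 0 of the 10 stage genes were called under every alternative tried. In the WT age comparison 4 were called, with 1521 of all genes called in either direction. There were 8 with all 12 libraries in the fit (3439 of all genes) and 1, Enpp6, without the intensity trend (192). Leaving out a library gave between 1 (without P60-WT replicate 3, 0.591% of all genes lower) and 8 (without P25-WT replicate 2, 8.05%). In the KO age comparison 8 were called, with 3641 of all genes. There were 5 without the intensity trend (1725 of all genes), 7 with all 12 libraries (2499) and 9 with a minimum mean of 50 (3696). When a library was left out, 7 to 9 were called, with 6.89% to 9.97% of all genes called lower. Gpr17 was called in every KO alternative, and Enpp6 in every alternative of both age comparisons. The number of all genes called ran from 122 to 3439 against 1521 in WT, from 1725 to 3728 against 3641 in KO, from 0 to 8 against 1 at P25, from 0 to 3 against 1 at P60, and from 0 to 1 against 0 in the interaction. Values that passed no test in either setting changed sign in 18 of 150 cases at P25 (7 genes), 11 of 150 at P60 (6 genes), 16 of 200 in the interaction (4 genes) and 1 of 150 with age in KO (Bcas1). No called value changed direction.

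Replicate numbers were used as a replicate block: 6 stage genes were then called in WT with age, with Tcf7l2 and Itpr2 added, 8 in KO and 0 elsewhere, while all genes called went from 1521 to 1791 in WT and from 3641 to 2482 in KO. Deviations of libraries that share a number correlated between -0.072 and 0.166, in no comparison above 0.1 for every pair. All 6 libraries correlated best with their own number between KO and WT at P60, a hint from the data only, and 2 of 6 did in each other comparison, so the numbers were not taken to pair the samples. Precision is limited by 3 libraries a group. Depth cannot be recovered from normalized values.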
